A study of Rattus norvegicus with 132 samples.

Results

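The translation initiation and elongation factors were taken as all rows of the deposited table whose symbol starts with Eif or Eef, which gave 45 of 9271 genes. The values come from spatial profiling of rat kidney sections with a mouse whole-transcriptome probe set, read out by sequencing, in manually chosen regions of interest (ROIs) of formalin-fixed tissue. There were 4 groups of 3 rats, labelled Sham, HS, RM and RM-HS, and the series describes the injury as trauma-induced acute kidney injury. HS and RM are commonly read as hemorrhagic shock and rhabdomyolysis, but the labels do not spell them out, nor do they give a strain, an age or a time after injury. The 132 ROIs lay in 4 areas: cortex (C), corticomedullary junction (CMJ), glomeruli (G) and medulla (M). ROIs cannot be tied to rats from the labels, and the p-values below, which are computed over ROIs, are therefore too small.

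Initiation factors bring the small ribosomal subunit, the initiator tRNA and the start codon of a messenger RNA together, and elongation factors then drive the ribosome along it. Control falls mainly on cap recognition by the eIF4F complex (the cap-binding eIF4E, the scaffold eIF4G and the helicase eIF4A) and on delivery of the initiator tRNA by eIF2. eIF4E-binding proteins restrain the first, and kinases of eIF2 alpha, whose activity starts the integrated stress response, restrain the second. Injured renal tubules are known for activating that response while they remodel their protein synthesis. The measurements here are of RNA and do not show how fast protein was made or which factor was phosphorylated.

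The ROIs were handled on 3 plates: 90 on plate C (24 Sham, all RM but 1 and all RM-HS), 41 on plate E (12 Sham and all HS) and 1 RM glomerular ROI on plate A, which the fit left out. Each injury was therefore set against the Sham ROIs of its own plate. Runs of neighbouring wells from 1 group were treated as a random block; there were 12, 3 per group, and nothing says that a run is a rat. The wells of RM-HS run 3 lie in 2 places: its medullary ROIs adjoin RM-HS run 2, and its other ROIs follow Sham run 1. Treating them as 2 blocks, chosen after the data were seen, is given where it moved a result. Reads per ROI ranged from 17894 to 2305964, and glomeruli were shallowest, with a median of 95876.5, beside 819487 for cortex. Depth moved with injury: in plate C cortex the median was 561952.5 in Sham, 1097158 in RM and 920588 in RM-HS. With log2 reads per ROI added to the fit, chosen after the data were seen, the counts of rising members in the averages over areas were 16 for RM (17 without it) and 9 for RM-HS (12 without it), and in cortex the RM count went from 10 to 6. Marker genes bore on the labelled areas: in Sham, 3 of 4 podocyte markers were higher (and 1 lower) and 6 of 6 proximal tubule markers lower in glomeruli than in cortex, and 3 of 3 collecting duct and 3 of 4 loop of Henle markers were higher in medulla. Of the wider marker lists, 1 endothelial (Flt1), 1 macrophage (Cd74), 1 loop of Henle (Slc12a1) and 1 collecting duct (Aqp2) gene changed in the RM average, the first pair upward. In bulk ROIs, fewer cells of a type and less RNA per cell cannot be told apart.

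The last HS run stood apart from the other HS runs. It held 8 ROIs and no medulla. Averaged over its areas, the median member lay 0.552 log2 units above the plate E Sham mean, with 33 of 44 tested members above it, against 40.3% of all tested genes. HS run 1 had a median of -0.056 with 21 members above, and HS run 2 a median of -0.131 with 16 above. Median reads were 1049672.5 in HS run 3, 457910 in run 1 and 187967 in run 2, and the part of depth in the gap was not tested. The HS counts below are given with and without that run. It was singled out for its high member values, so leaving it out lowers the HS changes of members. Their median in the average of 4 areas went from 0.08 to -0.11 without it. The share of all tested genes called without that run is not given here, so those counts have no background beside them.

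Members passed the filter when their signal was over 2 times that of the negative probe in 10% or more of the 131 fitted ROIs, which 44 members and 8799 genes did. Eef1a2, the muscle and nerve form of the factor that delivers aminoacyl-tRNA, exceeded it in 13 ROIs (9.92%) and was left out. Just inside were Eif4e1b and Eif4e3, with 15 ROIs each (11.45%), and Eef1e1 with 19 (14.5%). Levels below are Q3-normalised signals, in which every ROI was scaled to the same upper quartile of 58.2. Changes are limma estimates on log2(signal + 1), with Benjamini-Hochberg adjustment over 8799 genes and a call at an adjusted p under 0.05. A mouse probe may bind rat RNA of each gene differently, so levels are not set against each other between genes.

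RM raised 17 of the 44 tested factors in the average of the 4 areas and lowered 0. Of all tested genes, 8.46% were called in that comparison (7.65% up, 0.807% down), against 38.6% of the members. Members were also better detected than the tested genes at large. Raising the filter from 10% to 50% of ROIs kept 32 of 44 members and 4188 of 8799 genes. Median levels were 5.002 times the negative probe for called members and 2.615 for the others. The part of detection in this gap, and in the other comparisons with all tested genes, was not tested. The median member change was 0.28 log2 units (38 of 44 above 0), beside -0.06 for all tested genes. The rises covered the cap-binding complex, most measured eIF3 subunits, the scanning factor Eif1, Eif5a, Eif6, Eef1b2 and Eef2. Eif4a1 had the largest, 1.11 log2 units or 2.16-fold, and the plot of average changes gives all 44. Leaving out Sham run 1 took the count from 17 to 7 (Eif4a1, Eif1, Eif5a, Eef2, Eif4e, Eif3a and Eif4h), all still upward, with only Sham run 2 then left as the control on plate C. The count was 13 on 1 mean per run and area, and 13 without RM run 1 or RM run 2.

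**Figure D1:**
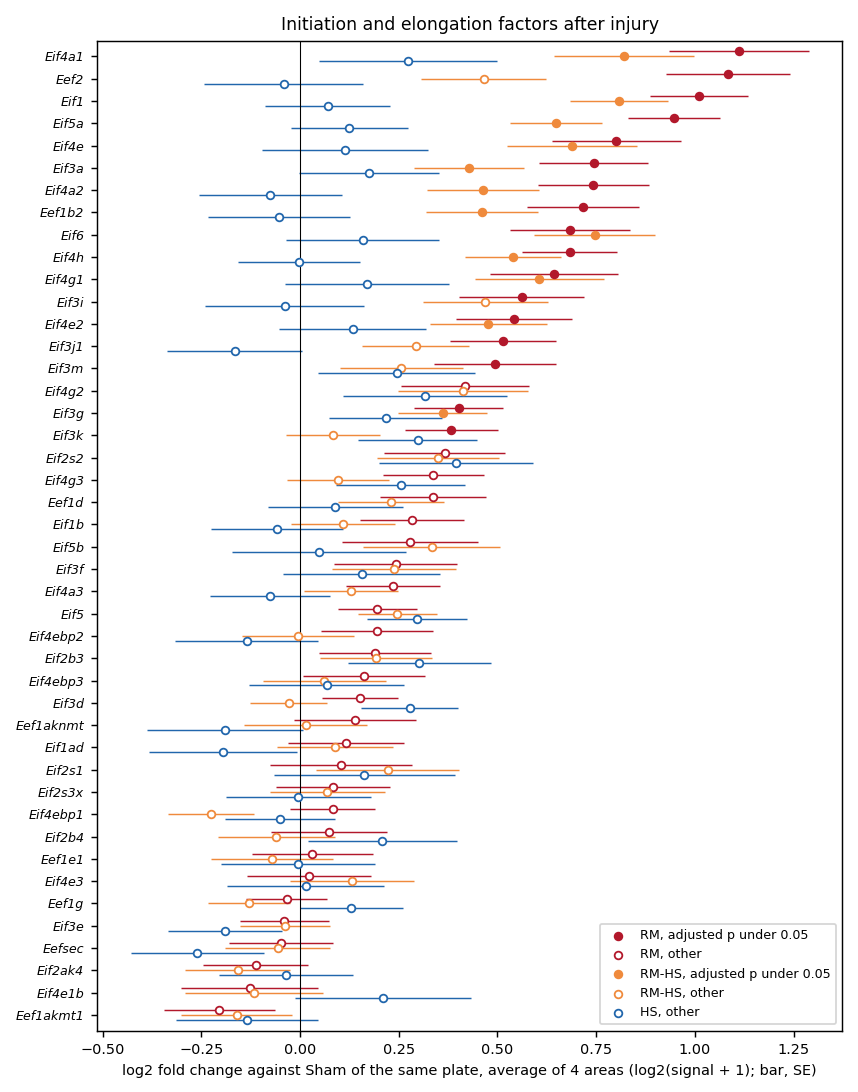
Change of each of the 44 tested factors against Sham of the same plate, averaged over 4 areas (x axis, log2 fold change of signal + 1; bars, standard error; filled points, adjusted p under 0.05). RM (red) and RM-HS (orange) points lie mostly right of 0, with 17 and 12 filled, and no HS (blue) point is filled.

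The helicase eIF4A unwinds structured leaders of messenger RNAs, with Eif4h as a cofactor. Eif4a1 lies on rat chromosome 10, at 54883093 to 54888602 of GRCr8. In medulla its signal was 73.6, 81.7 and 106 in plate C Sham (lowest, median, highest of 6 ROIs), and 172, 211 and 277 in RM (9 ROIs). At the junction it was 91.7, 93.5 and 106 in Sham and 206, 258 and 314 in RM (8 ROIs), so RM and Sham did not overlap in either area. Glomeruli overlapped: Sham spanned 54.5 to 116 and RM 95.8 to 180. All 34 fitted RM ROIs lay above the Sham mean of their area (log2 fold change 1.11 ± 0.18 (SE), limma adjusted p = 2.34e-07). Eif4a2 rose by 0.74 ± 0.14 (adjusted p = 1.94e-05) and Eif4h by 0.68 ± 0.12 (adjusted p = 3.99e-06), while Eif4a3, the helicase of the exon junction complex, had a change of 0.24 ± 0.12 (adjusted p = 0.248).

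Cap binding moved with it. Eif4e, which holds the cap, had a junction signal of 39.4, 45.2 and 57.3 in Sham (lowest, median, highest) and 79.0, 98.2 and 107 in RM, with no overlap. Its average change was 0.80 ± 0.16 (adjusted p = 9.06e-05), and that of its relative Eif4e2 0.54 ± 0.15 (adjusted p = 0.00546). Eif4e2 was above 2 times the negative probe in only 41.98% of ROIs. Of the other cap-binding relatives, Eif4e3 changed by 0.02 and Eif4e1b by -0.13, neither called, and both barely passed the filter. The scaffold Eif4g1 rose by 0.64 ± 0.16 (adjusted p = 0.00234). Its relatives did not pass: Eif4g2, a scaffold that does not bind eIF4E, had 0.42 ± 0.16 (adjusted p = 0.102), and Eif4g3 0.34 ± 0.13 (adjusted p = 0.0888). None of the 3 eIF4E-binding inhibitors was called in the average.

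eIF3 is the scaffold that holds other factors on the small subunit. Of its 9 tested subunits, 6 rose with RM: Eif3a (0.74), Eif3i (0.56), Eif3j1 (0.51), Eif3m (0.49), Eif3g (0.40) and Eif3k (0.38). Eif3d, Eif3e and Eif3f had changes of 0.15, -0.04 and 0.24 and were not called. Eif3a, the largest subunit, had cortex signals of 60.3, 78.2 and 88.1 in Sham and 113, 134 and 185 in RM, with no overlap. The subunits thus did not all move by the same amount; differences between subunits were not tested.

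Eif1, which keeps the scanning ribosome from starting at the wrong codon, lies on rat chromosome 10 (85747064 to 85749447). In cortex it measured 113, 137 and 193 in Sham and 235, 309 and 508 in RM. It rose by 1.01 ± 0.12 (adjusted p = 3.12e-11), with 34 of 34 RM ROIs above the Sham mean, whereas its close copy Eif1b had 0.28 ± 0.13 (adjusted p = 0.196). Reads of close copies may be shared between probes. Eif6, which keeps ribosomal subunits apart until the large one is mature, rose by 0.68 ± 0.15 (adjusted p = 3.79e-04). Eif5, which triggers GTP hydrolysis on eIF2, and Eif5b, which joins the subunits, had 0.20 and 0.28 and were not called.

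The eIF2 arm did not reach the threshold, and most of it was measured near background. Median levels were 1.51 (Eif2s1), 1.70 (Eif2s3x), 1.99 (Eif2ak4), 2.04 (Eif2s2), 2.615 (Eif2b3) and 2.624 (Eif2b4) times the negative probe. Some members that rose with RM were as low: Eif4e2 (1.86), Eif3i (1.87), Eif3m (2.41), Eif4e (2.43) and Eif4g1 (2.48). The median over the 17 risen members was 5.002. With RM, 2 of 12 tested members above 2 times that probe in under 50% of ROIs were called (Eif3i and Eif4e2), beside 15 of 32 others. The part of signal level in this was not tested. The 3 tested subunits of eIF2, Eif2s1, Eif2s2 and Eif2s3x, changed by 0.10, 0.37 and 0.08, and the 2 tested subunits of its exchange factor, Eif2b3 and Eif2b4, by 0.19 and 0.07. Eif2ak4, which senses uncharged tRNA and was the only eIF2 alpha kinase among the members, changed by -0.11. With all runs, none of the 6 was called in any injury average (without HS run 3, Eif2b3 was called with HS, at 0.42), and Eif2s2 had the lowest adjusted p of them with RM (0.139).

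Among elongation factors, Eef2, the translocase, lies on rat chromosome 7 (9183836 to 9196255). Its cortex signal was 152, 204 and 310 in Sham and 495, 595 and 885 in RM (lowest, median, highest), so the lowest RM ROI exceeded the highest Sham ROI of plate C. By run, the cortex means of the Sham runs were 165, 267 and 426, the last on plate E, and those of the RM runs 551, 721 and 592. Eef2 rose by 1.08 ± 0.16 (adjusted p = 1.56e-08) in the average and by 1.55 ± 0.22 in cortex, the largest change of any member in any area with RM. Eif5a, which carries hypusine and helps the ribosome through difficult peptide bonds, lies on chromosome 10 (55138821 to 55143272). Its medullary signal was 192, 208 and 266 in Sham and 378, 453 and 527 in RM, again with no overlap. It rose by 0.95 ± 0.12 (adjusted p = 2.77e-11). Eef1b2, 1 of 3 tested parts of the exchange factor that recharges eEF1A, rose by 0.72 ± 0.14 (adjusted p = 4.60e-05), while Eef1d and Eef1g had 0.34 and -0.03 and were not called. The 4 other elongation-related members (Eef1akmt1, Eef1aknmt, Eef1e1 and Eefsec) were not called.

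**Figure D2:**
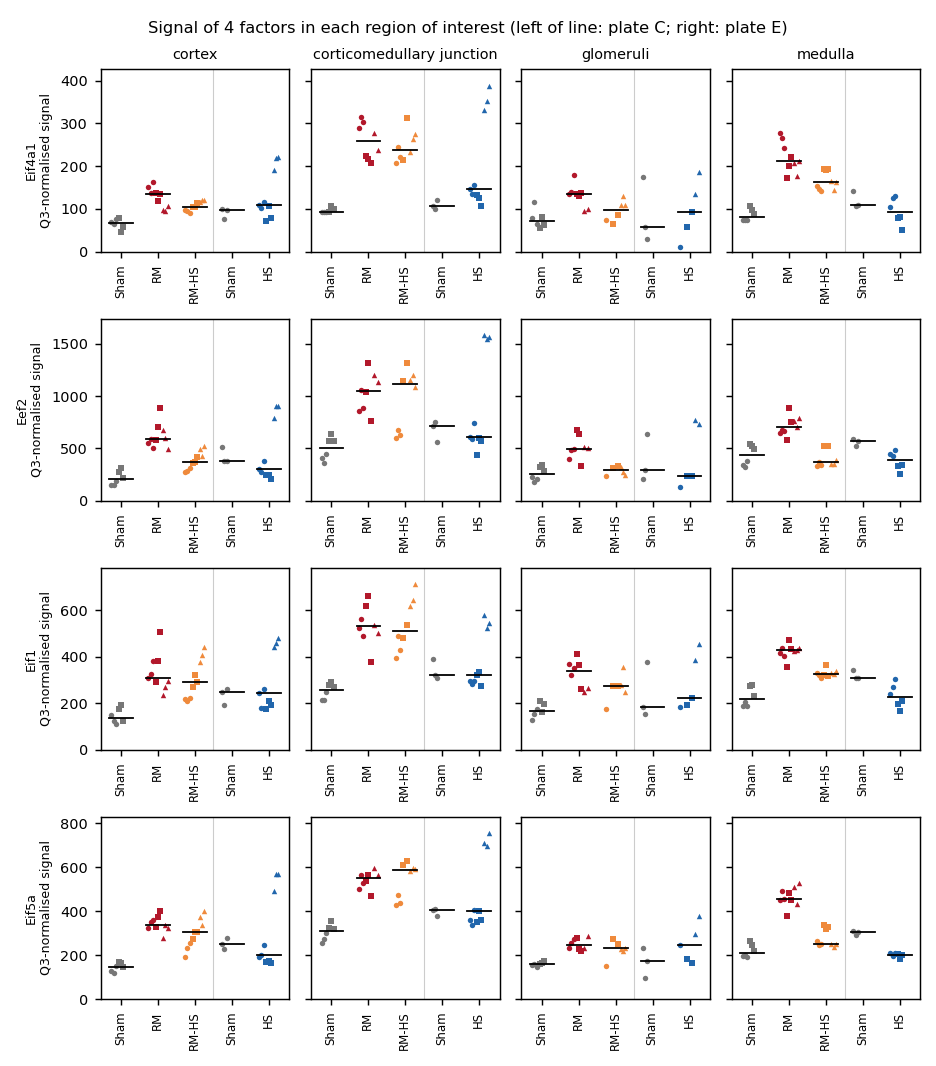
Q3-normalised signal (y axis) of Eif4a1, Eef2, Eif1 and Eif5a in each ROI, by area and group; plate C is left of the grey line and plate E right, marker shapes show the well runs of a group and black lines the group medians. RM ROIs lie above plate C Sham in most panels, and in the HS columns the triangles (HS run 3) lie above the other HS ROIs in cortex and at the junction.

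Since many factors moved together, the 250 bases before the listed start of each gene were searched in RefSeq's rat promoter table (GRCr8), which held 38 of the 45 members. The E-box CACGTG, which factors of the MYC family and related proteins bind and which reads the same on both strands, was present in 7 of the 38 (18.4%), beside 5.59% of all 33469 windows. Of the 16 risen members in the table, 5 held it (31.2%), fewer than held some of the other motifs searched, given below. The E-box sites of these 5 are shown with 12 bases on either side, the motif in capitals.
Eif4e, chr2:229740504-229740533, plus strand: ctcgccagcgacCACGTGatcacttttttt
Eif4e, chr2:229740661-229740690, plus strand: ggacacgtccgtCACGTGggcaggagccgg
Eef2, chr7:9189297-9189326, minus strand: cacccgcgccgtCACGTGacgtgcccaacc
Eif5a, chr10:55143410-55143439, minus strand: aaggggcggggtCACGTGtgtgcgtcattg
Eif4g1, chr11:93746404-93746433, minus strand: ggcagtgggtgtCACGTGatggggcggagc
Eif4h, chr12:27719512-27719541, plus strand: tggccgccccacCACGTGggccgcagagcg
The sites begin 237 and 80 bases before the listed start of Eif4e, 76 before that of Eef2, 206 before that of Eif5a, 54 before that of Eif4g1 and 168 before that of Eif4h. For each of these 5 genes the listed start lies inside the span of the gene given by the same release. The Eif4e and Eef2 sites also lie wholly inside those spans (229736309 to 229772628 for Eif4e, 9183836 to 9196255 for Eef2). They are thus within the gene and not before it. The other members with the motif were Eif3f and Eif1b, neither of which was called with RM.

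Of the 13 other motifs searched on both strands, those most frequent among the 38 members were GGGCGG (60.5%, beside 30.5% of all windows), TGACG (42.1% beside 18.2%), CCGGAAG (28.9% beside 7.27%), CCAAT (28.9% beside 34.0%) and the NRF1 motif (18.4% beside 3.75%). Among the 16 risen members, GGGCGG was in 10, TGACG in 8, CCGGAAG in 6, CCAAT in 5 and the NRF1 motif in 4. The E-box, in 5, was thus not the most frequent motif among them. TGACG also lies within TGACGTCA (2.63% beside 1.59%), and TGANTCA (10.5% beside 6.34%) within TGANTCAGC (0% beside 0.965%). TGATGNAA, a site of the Atf4 type, was in 5.26% beside 3.40%, TTGCATCA in 2.63% beside 0.693%, GAANNTTC in 10.5% beside 7.23%, TATAAA in 7.89% beside 12.9% and AAGATGG in 0% beside 4.62%. The motifs were picked with the expression results known, no test was run, and a match is a run of letters, not a bound site.

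The rises were spread over the 4 areas. RM raised 10 members in cortex (5.77% of all tested genes were called there), 12 in the junction (4.84%), 11 in the glomeruli (10.1%) and 11 in the medulla (5.32%), and lowered 0 in each. Eif4a1, Eif4a2, Eif4h, Eif1, Eif5a and Eef2 were called in all 4 areas. The largest rises were those of Eef2 (1.55) and Eif5a (1.23) in cortex, Eif4a1 (1.38) and Eef2 (1.06) at the junction, Eef2 (0.97) and Eif1 (0.90) in glomeruli, and Eif4a1 (1.34) and Eif5a (1.08) in medulla. The lowest RM ROI exceeded the highest plate C Sham ROI for 13 members in cortex (6.08% of all tested genes), for 20 in the junction (7.69%), for 4 in the glomeruli (1.6%) and for 17 in the medulla (6.99%). Without Sham run 1 the counts called were 3, 2, 1 and 2 in the same order; without RM run 1 they were 6 in cortex and 4 in glomeruli, without RM run 2 they were 6 in glomeruli, and without HS run 3, which is in no RM contrast but in the shared fit, 16 in cortex. On 1 mean per run and area the counts were 2, 1, 0 and 2. The edgeR fit on whole reads, which had no block for well runs, called 22, 35, 1 and 27, all upward but 1 at the junction. With plates fitted separately, 2 of 18 glomerular calls were downward.

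Cell composition markers moved beside these counts, and their part in them was not tested. In cortex, the summed signal of the 6 measured proximal tubule markers (of 8 listed) was 486.6 to 833.1 in plate C Sham and 749.9 to 1504.1 in RM, with 2 of 6 called up. The 4 podocyte markers there summed to 152.0 to 179.8 in Sham and 117.8 to 150.7 in RM, with no overlap. The negative probe alone had medians of 28.3 and 26.7 in these ROIs, so these sums of 4 genes lay near background. At the junction, that of 2 of 3 straight proximal tubule markers was 1071.4 to 1763.7 in Sham and 1679.7 to 2573.7 in RM. Loop of Henle markers at the junction summed to 552.5 to 921.0 in Sham and 322.9 to 487.5 in RM, and collecting duct markers to 183.3 to 238.0 and 108.6 to 173.4, with no overlap for either list. In glomeruli, 4 of 5 podocyte markers summed to 296.6 to 563.4 in Sham and 575.8 to 1049.4 in RM, with 3 of 4 called up, and 2 of 5 endothelial markers to 58.2 to 130.9 in Sham and 135.7 to 232.6 in RM; neither list overlapped. In medulla, 4 of 5 loop of Henle markers summed to 1210.4 to 2588.5 in Sham and 628.9 to 1096.5 in RM, with 2 of 4 called down. Endothelial markers in medulla summed to 63.3 to 91.8 in Sham and 92.2 to 118.8 in RM, and straight proximal tubule markers to 95.0 to 124.0 and 70.7 to 92.8. Both are sums of 2 genes, and the negative probe had medians of 19.5 in Sham and 17.9 in RM there. No marker was at 0 in any ROI, but the lowest value of any gene is 1 read, so this does not show that each was detected.

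A different change between areas was called for 2 members with RM (4.55% of members, below the 6.97% of all tested genes). These 2 were eIF4E-binding inhibitors, which release the cap-binding protein when mTORC1 phosphorylates them. Eif4ebp1 measured 70.6, 75.6 and 79.3 in Sham glomeruli and 95.8, 103 and 150.0 in RM glomeruli, with no overlap. Its change was 0.56 ± 0.16 there (adjusted p = 0.00972), beside -0.07 for cortex, -0.17 for the junction and 0.00 for medulla (limma F test between areas, adjusted p = 0.0120). Eif4ebp2 had 0.50 and 0.52 in cortex and at the junction and -0.07 and -0.17 in glomeruli and medulla (adjusted p = 0.0465), though no single area was called. Next in order of p were Eif2s2 (0.0828), Eif6 (0.102) and Eef1b2 (0.117). The count of 2 fell to 0 without RM run 1, RM run 2 or Sham run 1, was 1 without HS run 1, RM-HS run 1 or RM-HS run 2, and was 4 without HS run 2 or HS run 3.

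**Figure D3:**
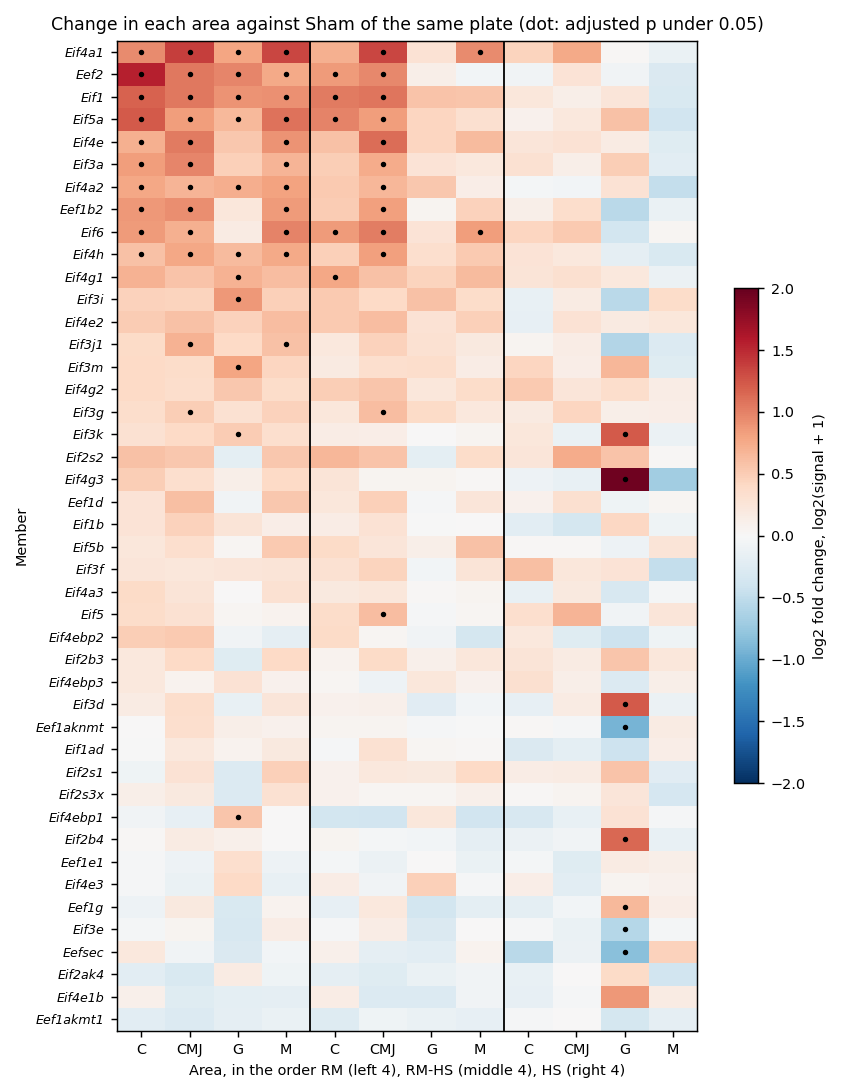
Change of the 44 tested factors (rows, ordered by the RM average) in cortex (C), junction (CMJ), glomeruli (G) and medulla (M) against Sham of the same plate, as log2 fold change; dots mark an adjusted p under 0.05. RM columns carry 10, 12, 11 and 11 dots, RM-HS columns 5, 12, 0 and 2, and in HS the 8 dots lie in glomeruli.

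RM-HS raised 12 members in the average and lowered 0 (of all tested genes 7.01% were called, 6.16% up and 0.852% down), and all 12 were among the 17 that rose with RM. Both comparisons share the plate C Sham ROIs, so the overlap is not independent. Eif4a1 rose by 0.82 ± 0.18 (adjusted p = 3.59e-04), Eif1 by 0.81 ± 0.12 (adjusted p = 1.83e-07), Eif6 by 0.75 ± 0.15 (adjusted p = 1.36e-04), Eif4e by 0.69 ± 0.16 (adjusted p = 0.00161), Eif5a by 0.65 ± 0.12 (adjusted p = 8.90e-06) and Eif4g1 by 0.61 ± 0.16 (adjusted p = 0.00693). The 6 smaller rises, from 0.36 to 0.54, were those of Eif4h, Eif4e2, Eif4a2, Eef1b2, Eif3a and Eif3g. Eif1 lay above the Sham mean in 32 of 32 RM-HS ROIs and Eif4a1 in 31. The count was 3 without Sham run 1, 7 without RM-HS run 2, 6 without RM-HS run 3 and 20 (19 up) without HS run 3, and 4 on 1 mean per run and area.

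By area, RM-HS raised 5 members in cortex (4.08% of all tested genes), 12 in the junction (5.44%), 0 in the glomeruli (4.85%) and 2 in the medulla (3.89%), and lowered 0. At the junction, Eif4a1 signals were 208, 238 and 312 (lowest, median, highest) against the Sham range of 91.7 to 106, a change of 1.34 ± 0.25 (adjusted p = 3.62e-05). Eif4e followed with 1.12 ± 0.24 (adjusted p = 2.69e-04). In cortex Eif1 (1.04) and Eif5a (0.99) changed most, and in medulla Eif4a1 (0.95) and Eif6 (0.83) were called. In glomeruli 7 members had an unadjusted limma p under 0.05, the lowest adjusted p was that of Eif1 (0.57 ± 0.19, adjusted p = 0.0542), and edgeR on whole reads also called 0. With plates fitted separately 6 were called there (5 up, 1 down), with an additive plate term 3 (all up), 1 (down) with quantile normalization and 1 (up) without the block. Non-overlap with Sham was seen for 9, 17, 0 and 9 members in the order cortex, junction, glomeruli and medulla (4.46%, 6.74%, 0.636% and 6.03% of all tested genes). In cortex, the summed proximal tubule markers were 801.1 to 1697.5 in RM-HS, above most of the Sham range given for RM, with 3 of 6 called up. At the junction the straight proximal tubule markers summed to 1627.0 to 2996.5 in RM-HS (1071.4 to 1763.7 in Sham) and the loop of Henle markers to 346.5 to 723.1 (552.5 to 921.0 in Sham). In medulla 3 of 6 macrophage markers summed to 194.5 to 302.6 in RM-HS and 132.2 to 165.2 in Sham, with no overlap. The part of these markers was not tested. On 1 mean per run and area the counts were 0, 2, 0 and 0. Without Sham run 1 they were 2, 5, 0 and 0, without RM-HS run 3 the cortex count was 2, and without HS run 3 the counts were 11, 16, 4 and 7. The medullary count was 1 without RM-HS run 2, 4 without HS run 1 or Sham run 2, and 5 without HS run 2, and 4 with RM-HS run 3 as 2 blocks; the glomerular count was 1 or 2 without HS run 1, HS run 2, RM-HS run 1, Sham run 2 or Sham run 3.

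The change with RM-HS differed between areas for 4 members (9.09%, beside 5.57% of all tested genes): Eef2 (F test adjusted p = 0.00503), Eif5 (0.0148), Eif5a (0.0329) and Eif4ebp1 (0.0489). Eef2 rose in cortex (0.85) and at the junction (0.96), and had 0.12 in glomeruli and -0.06 in medulla. Its medullary signal was 329, 370 and 527 in RM-HS beside 319, 435 and 540 in Sham, and at the junction 601, 1115 and 1314 beside 358, 505 and 639. Eif5 was called at the junction only among the areas tested (0.62 ± 0.14, adjusted p = 0.00113). It lay above the Sham mean in 9 of 9 RM-HS ROIs in cortex, 3 of 6 in glomeruli and 6 of 9 in medulla. The count was 2 without RM run 1, 1 without RM-HS run 3, and 0 without Sham run 1 or Sham run 2. With RM-HS run 3 as 2 blocks it was 2, with Eif5a (adjusted p = 0.0622) and Eif4ebp1 (0.0605) no longer called.

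RM-HS and RM ROIs shared plate C and could be set against each other directly. Eef2 was lower in RM-HS in the average, by -0.62 ± 0.14 (adjusted p = 0.0186), and was the 1 member called (0.239% of all tested genes). Next in order of p were Eif4ebp1 (-0.31, adjusted p = 0.283), Eif5a (-0.30, 0.467), Eif3k (-0.30, 0.474) and Eif3a (-0.32, 0.668). In medulla 3 members were lower (0.602%): Eef2 by -0.82 ± 0.20 (adjusted p = 0.0180), Eif5a by -0.76 ± 0.15 (adjusted p = 6.39e-04) and Eif4a2 by -0.68 ± 0.18 (adjusted p = 0.0353; 0.0787 with RM-HS run 3 as 2 blocks). Medullary Eif5a was 239, 251 and 336 in RM-HS and 378, 453 and 527 in RM, with no overlap, and Eef2 was 329 to 527 against 577 to 889. In glomeruli Eef2 was lower by -0.85 ± 0.22 (adjusted p = 0.0225; 1.98% of all tested genes called), with 239, 292 and 328 in RM-HS and 337, 498 and 680 in RM. In cortex and at the junction limma called 0 members (0% and 0.421%), with 4 and 3 at an unadjusted p under 0.05; edgeR on whole reads called 0 and 3, and without HS run 3 the cortex count was 1. The call of Eef2 in the average was lost without RM run 2, RM run 3, RM-HS run 1 or RM-HS run 3. The medullary count was 1 without any RM run, RM-HS run 1 or RM-HS run 3, and the glomerular count was 0 without RM run 2, RM run 3, RM-HS run 1 or RM-HS run 2 and 2 without HS run 2 or HS run 3. In the average the count without HS run 3 was 5, all lower. On 1 mean per run and area 0 members were called in the average and in each area.

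**Figure D4:**
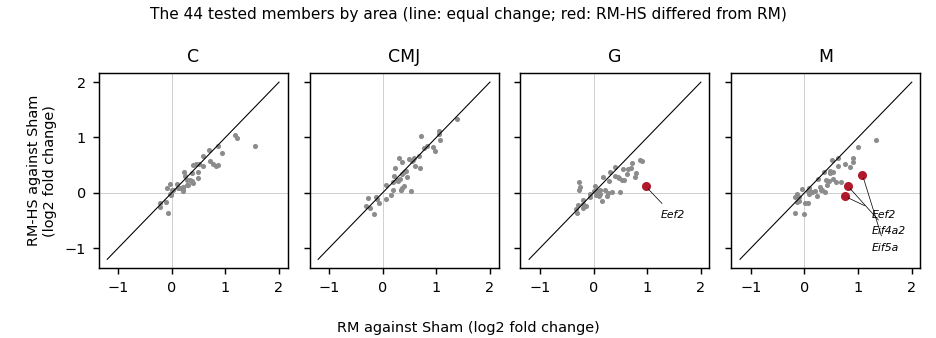
Log2 fold change of the 44 tested factors against plate C Sham with RM (x axis) and RM-HS (y axis), 1 panel per area; the line marks equal change, both axes share the same Sham ROIs, and red points differed between RM-HS and RM. Eef2 lies below the line in glomeruli, and Eef2, Eif5a and Eif4a2 do so in medulla.

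HS called 0 members in the average by limma (0.193% of all tested genes), with 4 at an unadjusted p under 0.05 (Eif5, Eif3d, Eif2s2 and Eif3k), 0 by edgeR on whole reads and 2 without the block. The lowest adjusted p was 0.781, for Eif5 (0.30 ± 0.13) and Eif3d (0.28 ± 0.12). HS run 3 carried high values: its Eef2 means were 869 in cortex, 1564 at the junction and 754 in glomeruli, beside 322, 648 and 128 in HS run 1, 235, 535 and 233 in HS run 2, and 426, 677 and 380 in plate E Sham. In cortex, Eif4a1, Eif1 and Eif5a had means of 210, 461 and 543 in HS run 3 and of 91.6, 234 and 252 in plate E Sham, while the other HS runs lay at 85.5 to 109, 193 to 228 and 168 to 212. Without that run 7 members were called in the average: Eef2 (-0.56), Eif4ebp2 (-0.45), Eef1b2 (-0.43), Eif3j1 (-0.40), Eif4a2 (-0.40) and Eif4h (-0.35) fell and Eif2b3 (0.42) rose, so that Eef2 went from -0.04 with the run to -0.56 without it. That run was left out for its high values of these members, so such falls follow in part from that choice. Without HS run 2 the count was 1. Marker sums moved here too, and their part was not tested: in medulla the 4 loop of Henle markers summed to 894.2 to 1300.9 in HS and 2444.4 to 2991.5 in Sham.

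In the other 3 areas (cortex, junction, medulla) limma called 0 members with HS (0.0796%, 0.193% and 0.273% of all tested genes), with 2, 4 and 1 at an unadjusted p under 0.05, and edgeR called 0, 5 and 0. The lowest adjusted p was that of Eif5 at the junction (0.67 ± 0.18, adjusted p = 0.0985). Its signal there was 169 to 273 in HS and 116 to 160 in Sham, with no overlap, as for 0.977% of all tested genes. Without HS run 3 its change was 0.54 (adjusted p = 0.155), and the junction count stayed at 0. In medulla, where HS run 3 has no ROI, 7 members lay wholly below Sham (Eef2, Eif1, Eif3a, Eif4a2, Eif4e, Eif4h and Eif5a; 6.43% of all tested genes did), and in cortex 1 did (Eefsec; 0.682%). The junction count was 1 without HS run 1 and 2 without HS run 2, and the medullary count was 1 without HS run 1 and 2 without HS run 3, both downward. In glomeruli 8 members were called (18.2% of members, near the 19.5% of all tested genes). They were Eif4g3 (1.95), Eif3d (1.23), Eif3k (1.22), Eif2b4 (1.15) and Eef1g (0.64) up, and Eef1aknmt (-0.93), Eefsec (-0.83) and Eif3e (-0.57) down. Eif3k and Eif4g3 lay wholly above Sham, as did 1.51% of all tested genes. Those values rest on 3 Sham ROIs with 17894 to 41933 reads. Behind Eif4g3 stood 1, 1 and 2 reads in Sham and 5 to 28 in HS (5 ROIs); behind Eif3d 1, 2 and 2 in Sham; and behind Eif2b4 1 in each Sham ROI. The lowest value in the table is 1 read, and in 1 of these Sham ROIs 61.4% of tested genes sat at it, so changes of such genes were not measurable at this depth. edgeR on whole reads called 0 of the 8, and without HS run 3 limma called 18 (9 up, 9 down), among them Eif4g3 (1.5), Eif3k (1.29), Eif3d (1.18), Eif2b4 (0.86), Eef1g (0.83), Eefsec (-0.75) and Eef1aknmt (-1.22) but not Eif3e (-0.36, adjusted p = 0.170). The change differed between areas for 7 members (15.9%, near the 15.3% of all tested genes), which were Eif4g3, Eif3d, Eif3k, Eefsec, Eif2b4, Eef1g and Eif5a. That count was 11 without HS run 3 or without 1 glomerular Sham ROI.

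The changes with RM and with HS, each against Sham of its plate, were set against each other. The change with RM was larger for 6 members (2.59% of all tested genes): Eef2 by 1.13 ± 0.26 (adjusted p = 0.00257), Eif1 by 0.94 ± 0.20 (adjusted p = 0.00106), Eif5a by 0.82 ± 0.19 (adjusted p = 0.00282), Eif4a2 by 0.82 ± 0.23 (adjusted p = 0.0257), Eef1b2 by 0.77 ± 0.23 (adjusted p = 0.0436) and Eif4h by 0.69 ± 0.20 (adjusted p = 0.0312). The change with RM-HS was larger than that with HS for Eif1 alone (1.01% of all tested genes; 0.74 ± 0.20, adjusted p = 0.0398). The HS average includes the plate E glomeruli, whose 3 Sham ROIs were shallow. Sham reads there were 15, 18 and 22 for Eef2, 8, 13 and 16 for Eif1, and 5, 6 and 20 for Eif5a. They were 4, 6 and 11 for Eif4a2, 3, 6 and 18 for Eef1b2, and 4, 4 and 9 for Eif4h. The Sham ROI with 17894 reads had the highest Sham glomerular signal of Eef2 and Eif1. HS run 3 bears on both: without it 19 members had a larger change with RM and 15 with RM-HS (plus 2 with a smaller one). The RM count was 0 without Sham run 1, 1 without HS run 2 and 3 without HS run 1, RM run 1, RM run 2 or RM-HS run 2; on 1 mean per run and area both counts were 0. The call of Eif1 with RM-HS was lost without HS run 1, HS run 2, any RM run, RM-HS run 2, RM-HS run 3, Sham run 1 or any of 5 single plate E Sham ROIs. Plate and injury are nested here, so a plate effect on the injured ROIs alone cannot be told apart from the injury.

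Baseline levels differed between areas in Sham. At the junction 11 members were higher than in cortex (8.17% of all tested genes called) and 0 lower, led by Eef2 (1.04 ± 0.16, adjusted p = 1.87e-07), Eif5a (0.92 ± 0.12, adjusted p = 3.37e-10) and Eif4a2 (0.76 ± 0.15, adjusted p = 3.20e-05). In medulla 7 were higher and 1 lower (12% called), led upward by Eef2 (0.82), Eif4a2 (0.62) and Eif1 (0.58), with Eif2s1 (-0.53) lower. In glomeruli 2 were higher (Eif3e, 0.32, and Eif5, 0.25) and 12 lower (39.2% called), led by Eif3k (-0.68), Eif2b4 (-0.64) and Eif4e3 (-0.62). In the 3 plate E Sham glomeruli these stood on 1, 1 and 3 reads for Eif3k and on 1 read in each ROI for Eif2b4 and Eif4e3. By Sham run, Eif2b4 averaged 56.5 in glomeruli and 55.8 in cortex in run 1, 48.3 and 56.7 in run 2, and 20.03 and 61.8 in run 3, the plate E run. That glomerular count depended on the scaling: the median of all genes moved from -0.27 by 0.30 with quantile normalization, where 2 were higher and 5 lower and Eif4e3 turned to 0.03, and by 0.31 with edgeR on whole reads, where 2 were higher and 0 lower. Without Sham run 1, 2 or 3 the glomerular counts were 6, 9 and 5. The junction count was 6 without Sham run 2, and the medullary count 5 without Sham run 1 and 2 without Sham run 2. On 1 mean per run and area the counts were 1 for junction, 2 for glomeruli and 0 for medulla.

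Replicate ROIs of a group varied most in glomeruli, where the median SD of a member was 0.482 log2 units, beside 0.219 (cortex), 0.177 (junction) and 0.171 (medulla). Over the 20 means of plate, injury and area, the members closest to the median member were Eif3g (Pearson r = 0.947), Eif5a (0.933) and Eif4g1 (0.929), while Eif4ebp1 (-0.306), Eif2ak4 (-0.252) and Eef1e1 (-0.235) ran the other way. The 5 other genes closest to it were Rps3 (0.959), Aamp (0.957), Hypk (0.953), Pdcd6 (0.951) and Taldo1 (0.951). These 20 points share plates, Sham groups and depth, so the correlations are descriptions.

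Other genes of the pathway moved with RM as follows, beside 7.65% of all tested genes that rose in the RM average. Of 9 tested poly(A)- and mRNA-binding regulators, 4 rose: Pabpc1, which joins the messenger's tail to eIF4G (1.11 ± 0.14, adjusted p = 3.63e-11), Larp1 (0.72), Pabpc4 (0.47) and Ybx1 (0.43). Of 5 termination and recycling factors, 2 rose: Gspt1, the release factor GTPase (1.14 ± 0.09, adjusted p = 1.87e-21), and Etf1 (0.49). Of 15 cytosolic tRNA synthetases, 5 rose, by 0.43 to 0.53 (Eprs, Kars, Tars, Iars and Cars). Of 5 genes of the integrated stress response, 3 rose: Atf3 (1.51), Atf4 (1.39), whose own translation increases when eIF2 alpha is phosphorylated, and Ppp1r15a (0.95), which brings the phosphatase to eIF2 alpha. Of 11 genes of the mTORC1 axis and 3 mitochondrial translation factors, 0 were called with RM. With RM-HS, Pabpc1, Pabpc4, Gspt1, Atf3, Atf4, Ppp1r15a, Eprs, Iars and Tars rose, as did Ddit4, an inhibitor of mTORC1 (0.66 ± 0.16, adjusted p = 0.00147), and with HS 0 genes of these lists were called. Without Sham run 1 the risen genes were Pabpc1, Gspt1, Atf3, Atf4 and Ppp1r15a with RM, and Gspt1, Atf3, Atf4 and Ppp1r15a with RM-HS, with 0 of 15 synthetases and 0 of 11 mTORC1 genes called in either. On 1 mean per run and area 1 synthetase (Eprs) rose with RM and 0 with RM-HS. Without HS run 3, Rptor and Ddit3 rose and Cyfip1, Dars and Kars fell with HS, and with RM 8 of the 15 synthetases and 6 of the 9 poly(A)- and mRNA-binding regulators rose, 3 mTORC1 genes rose (Akt1s1, Ddit4 and Rheb), 2 fell (Castor1 and Mknk1), and Tufm rose and Gfm2 fell.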

How the data were processed

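The data are 132 ROIs of rat kidney in 4 areas and 4 groups of 3 rats. The authors deposited a table of Q3-normalised signal per gene and ROI. The submitters' processing notes name the human builds GRCh38 and hg38 without a role, and no source used here names the software. In each ROI 100% of values were whole multiples of 1 read (tolerance 1e-04), so the read count per gene behind the deposited signal could be recovered. No value was 0, and the highest of 8646 pairwise correlations was 0.9768 with 0 identical pairs, so no ROI was dropped as a duplicate. The 1 ROI on plate A was left out of the main fit, and no ROI was dropped for few reads. Groups and areas come from the sample labels, and plates and runs from the well names in the titles.

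Signals were tested as log2(signal + 1) with limma 3.58.1 in R 4.3.3, with 1 mean per plate, injury and area, a random block for well runs (estimated correlation 0.137), an intensity trend, and two-sided tests. Sham areas were compared on both plates. Genes not above 2 times the negative probe in 10% of ROIs (472 of 9271) were left out. Alternatives were a pseudocount of 5, other filters, quantile normalization, other plate and run terms, 1 mean per run and area, edgeR 4.0.16 on whole reads, leaving out runs and, after seeing the data, log2 reads as a covariate and RM-HS run 3 as 2 blocks. The edgeR fit had no block for well runs and treated ROIs as independent, so its counts are not a like-for-like check of limma's. The main limma fit was tested on simulated data. Any member could be named; fitted changes were given for the 6 largest called rises and falls of each injury average, the 2 of each area, the 3 between Sham areas, the 5 lowest p of the other tests, the members around the filter's limit and at least 1 of each role. The members and all gene lists were chosen with earlier results of these data known, and 1 gene of the pathway lists is not reported here. Nothing states that ROIs came from separate animals, so p-values may measure technical spread.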

Additional observations from a re-analysis of the deposited data

Results flagged for a closer look

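Of 96 checks of single ROIs on 6 members, 4 found a value far from the others of its group and area (Dixon's ratio), and chance gives about 1 in 20. Each group of 9 Sham ROIs holds 6 of plate C and 3 of plate E, and all 4 outlying ROIs are of plate E. The highest Sham ROI at the junction had an Eif4a1 signal of 121.558 (next, 106.798; n = 9). The highest Sham glomerular ROI had 639.73 for Eef2 (next, 337.312; n = 9), on 22 reads in an ROI of 17894 reads, and the highest for Eif1 was 378.022 (next, 210.82; n = 9), on 13 reads in the same ROI. The lowest Sham cortex ROI had 25.589 for Eif4e (next, 38.772; n = 9).

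The change with RM exceeded that with HS in the limma fit for Eif1 (adjusted p = 0.001064), Eef2 (0.002568), Eif5a (0.002824), Eif4a2 (0.02573), Eif4h (0.03118) and Eef1b2 (0.04363), and the change with RM-HS exceeded it for Eif1 (0.03981). The HS average in each includes plate E glomeruli, where the Sham ROIs had few reads behind these members.

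The change differed between areas, by limma's F test, for Eif4ebp1 (adjusted p = 0.01196) and Eif4ebp2 (0.04654) with RM. With RM-HS it did for Eef2 (0.005031), Eif5 (0.01475), Eif5a (0.03291) and Eif4ebp1 (0.04887). With HS it did for Eif4g3 (1.944e-12), Eif3d (2.747e-07), Eif3k (5.353e-05), Eefsec (0.003044), Eif2b4 (0.003073), Eef1g (0.02108) and Eif5a (0.03411). All of these rest in part on glomerular Sham ROIs with few reads (5, 6 and 20 for Eif5a).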

How the results depend on the processing

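Of the values for named members under the alternatives, 2761 kept direction and side of the threshold, 293 lost the call, 78 gained one and 1 reversed (Eif4e3, glomeruli against cortex in Sham, 0.0281 with quantile normalization, adjusted p = 0.909); the cause was not tested. The counts of members called that moved by over 1.5 times follow, areas in the order C, CMJ, G, M where 4 are given. On 1 mean per run and area, with fewer values in the fit, RM had 2, 1, 0 and 2, RM-HS 0, 2 and 0 in C, CMJ and M and 4 in the average, RM-HS against RM 0 in G, M and the average, both injury differences 0, Sham areas 1 (CMJ), 2 (G) and 0 (M), and F tests 0 (RM), 2 (HS) and 0 (RM-HS). With edgeR on whole reads, RM had 22, 35, 1 and 27 and 29 in the average, RM-HS 17, 28 and 10 in C, CMJ and M and 22 in the average, RM-HS against RM 3, 0 and 16 in CMJ, G and M and 12 in the average, HS 5 (CMJ) and 0 (G), Sham glomeruli 2, and F tests 1 (HS) and 2 (RM-HS). Of the injury calls against Sham in these counts, 1 each was downward in RM (CMJ and average) and RM-HS (M and average). With plates fitted separately, RM had 18, 21, 18 and 20, RM-HS 16, 19, 6 and 11 and 22 in the average, RM-HS against RM 1, 5 and 8 in C, G and M and 10 in the average, HS 3 (G), and F tests 10 (RM), 2 (HS) and 9 (RM-HS). Against Sham, 2 of these were downward in RM (G), and 1 in each RM-HS area and in its average. Without the random block, the averages had 27 (RM), 21 (RM-HS), 2 (HS) and 7 (RM-HS against RM), HS 1 in CMJ and 1 in M, RM-HS 1 in G, the injury differences 14 (RM) and 12 (RM-HS), Sham medulla 5, and F tests 0 (RM) and 1 (RM-HS). Against Sham, 1 of these was downward in the RM-HS average and 1 in HS (M). With quantile normalization, RM-HS had 12, 7, 1 and 7, its difference from HS 3, Sham glomeruli 7 and the RM F test 5. Of these RM-HS calls against Sham, 2 were downward in C, 1 in G and 1 in M. An additive plate term gave 1 (HS, CMJ), 2 (HS, G, both downward) and 3 (RM-HS, G), and the filter at 50% of ROIs 4 (RM-HS, M). Log2 reads per ROI as a covariate, chosen after seeing the data, gave 6 (RM, C), 7, 8 and 5 (Sham CMJ, G and M) and 1 (RM F test). RM-HS run 3 as 2 blocks, also chosen after seeing the data, gave 4 (RM-HS, M) and 2 (RM-HS F test).

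Leaving out 1 run, or 1 plate E Sham ROI, gave these ranges. RM: average 7 to 24, C 3 to 16, CMJ 2 to 15, G 1 to 13, M 2 to 15, F test 0 to 4. RM-HS: average 3 to 20, C 2 to 11, CMJ 5 to 16, G 0 to 4, M 0 to 7, F test 0 to 5. HS: average 0 to 7, C 0 to 0, CMJ 0 to 2, G 7 to 18, M 0 to 2, F test 6 to 11. RM-HS against RM: average 0 to 5, C 0 to 1, CMJ 0 to 0, G 0 to 2, M 1 to 3. The injury differences: RM 0 to 19, RM-HS 0 to 17. Sham areas: CMJ 6 to 14, G 5 to 15, M 2 to 10. No paired analysis was possible because the labels give no replicate numbers that tie ROIs of different groups, and the numbers used here only name ROIs. HS has 1 Sham run as its control, and glomerular reads limit what its calls show.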
